A study of Homo sapiens with 10 samples.

Results

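The EAPP and A347S mutants of KLF11 were compared directly in Panc1 cells, an established epithelial line from a human pancreatic carcinoma. The comparison was chosen by construct and took the 2 arrays labelled KLF11-EAPP and the 2 arrays of the A347S mutant, which together are 4 of the 10 arrays of the series, and every transcript cluster with a gene symbol. All cells received adenovirus at a multiplicity of infection (MOI) of 150, and RNA was taken at 48 h. The viruses carried epitope-tagged KLF11-EAPP, which has prolines introduced into the Sin3 interacting domain, KLF11-A347S, which has a substitution in the proline-rich domain, KLF11-Δ486, which lacks a C-terminal stretch needed for the coupling to HP1, tagged wild type KLF11, or no insert (empty vector). The other 6 arrays, 2 each of Δ486, wild type KLF11 and empty vector, did not enter the difference but entered the estimate of the spread and served as points of reference. The constructs were overexpressed on top of the KLF11 of the line itself, in 1 cell line. The study's methods and the extract protocol describe arrays of a condition as technical duplicates of pooled RNA, although their titles number them as biological replicates, so p-values and errors below measure the spread between arrays and may leave out that between cultures.

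KLF11 is a Krüppel-like zinc finger transcription factor that binds GC-rich elements in promoters and is known in the pancreas for roles in cell growth and insulin expression. Its N-terminal Sin3 interacting domain recruits the Sin3 scaffold with histone deacetylases, complexes best known for repressing transcription. Its proline-rich domain binds WD40 proteins, among them a G protein beta subunit, and the A347S substitution in that domain is known from a monogenic form of diabetes. EAPP was built to lose the Sin3 contact with the proline-rich domain left as it is, and A347S was described to lose the WD40 contact with the Sin3 domain left as it is.

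A value here is the log2 level of a transcript cluster, the array's unit for a gene, as the authors normalized it with Robust Multiarray Analysis (RMA), so a difference of 1 is a 2-fold change. The array medians over the 20961 clusters with a symbol lay between 6.81 and 6.87. Across these clusters the 2 EAPP arrays correlated at 0.996 and the 2 A347S arrays at 0.997, against 0.985 to 0.989 for an EAPP array with an A347S array, and no pair of arrays was identical. The KLF11 cluster read 8.78 and 8.68 on the EAPP arrays, against 8.85 and 8.88 on the A347S arrays, a difference of -0.14 (standard error 0.16, limma adjusted p = 0.625), and 8.37 and 7.75 on the empty vector arrays. The sources used here do not say whether its probes read the transduced copy. By Western blot the study reported similar overexpression of the tagged wild type, A347S, Δ486 and EAPP proteins, which was not measured here. Of the markers of ductal and simple epithelium, KRT8 read 12.65 and 12.65 with EAPP, against 12.18 and 12.33 with A347S, and EPCAM read 8.51 and 8.56, against 8.78 and 8.32, while CDH1, the E-cadherin gene, was dim at 4.97 and 5.12 with EAPP and 4.94 and 4.71 with A347S. The mean level over 11 such markers was 8.50 and 8.51 with EAPP, against 8.31 and 8.23 with A347S. Over the marker lists of acinar, endocrine, stromal, endothelial and blood cells the mean levels were 4.93 to 5.74 with EAPP and 4.95 to 5.72 with A347S. By the rule given next, 0 of their 50 measured members were called, against 6.25% of all genes. Single members were brighter, such as COL1A1 at 8.19 and 8.16 with EAPP and 7.94 and 7.95 with A347S, and PTF1A at 6.96 and 6.77, against 6.81 and 7.05.

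Expression with EAPP differed from that with A347S in both directions, with BDH1, SFXN2 and PIMREG at the head of the rises and ZNF204P, RFPL4A and KIAA0825 at the head of the falls. Of 20961 clusters, 1260 were called (6.01%), 617 higher with EAPP (2.94%) and 643 lower (3.07%). The call required an adjusted p below 0.05 in limma, after Benjamini-Hochberg correction, together with an at least 1.5-fold difference between EAPP and A347S, and "rose" and "fell" are used of called clusters alone. The median difference was 0.71 among the rises and -0.81 among the falls, 58 rises and 156 falls were at least 2-fold, and the median standard error over all clusters was 0.095. The median level was 8.12 for clusters that rose and 7.86 for clusters that fell, compared with 6.84 for all clusters. The EAPP arrays lay beyond both A347S arrays at each of the 1260 clusters, a separation found at 56.9% of all clusters. Without a fold threshold 2858 clusters were higher (13.6%) and 2041 lower (9.74%). The division between rises and falls moved with the scaling: rises made up 49.0% of the calls as deposited, 41.4% after quantile scaling between the arrays (518 rises and 732 falls) and 37.8% after cyclic loess scaling (466 rises and 768 falls).

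The largest rise was that of BDH1, the mitochondrial enzyme that interconverts the ketone bodies acetoacetate and beta-hydroxybutyrate. It read 8.06 and 8.27 on the EAPP arrays, against 5.99 and 6.01 on the A347S arrays, a difference of 2.17 (standard error 0.10, adjusted p = 2.42e-05), or 4.49-fold. The EAPP arrays were above all other arrays of the series, and empty vector read 7.03 and 6.92, between both mutants. SFXN2, a sideroflexin of the mitochondrial membrane, read 8.22 and 8.27 with EAPP, against 6.39 and 6.21 with A347S (difference 1.94, standard error 0.11). Here the A347S arrays were the lowest of the series, and EAPP stood at the empty vector level of 8.25 and 8.20. IDH1, the cytosolic isocitrate dehydrogenase that supplies NADPH, read 10.70 and 10.80 with EAPP, against 9.21 and 8.99 with A347S (difference 1.65, standard error 0.08), with empty vector above both at 11.21 and 11.19.

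PIMREG, a regulator of mitosis, read 9.08 and 9.23 with EAPP, against 7.62 and 7.37 with A347S. EPB41, protein 4.1 of the membrane skeleton, read 7.98 and 7.96, against 6.55 and 6.37, and its EAPP arrays were the highest of the series by a small margin over empty vector, which averaged 7.94. SLC2A1, the GLUT1 glucose transporter, read 9.06 and 9.22 with EAPP, against 7.82 and 7.72 with A347S. In each of these genes the distance between both mutants was several times the distance between the arrays of a mutant. Differences of 1.31 to 1.43 were measured for KYAT3, a kynurenine aminotransferase, PCYT2 of phosphatidylethanolamine synthesis, ACAT2, a cytosolic thiolase at the start of the cholesterol pathway, IVD of leucine degradation, RCN2, a calcium-binding protein of the secretory pathway, and CDK5RAP3, a partner of the UFM1 ligase.

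The falls reached further than the rises. ZNF204P, a zinc finger pseudogene, read 3.56 and 3.46 on the EAPP arrays, against 6.41 and 6.34 on the A347S arrays (difference -2.87, standard error 0.27, adjusted p = 0.000142). Empty vector read 3.82 and 4.33 for this cluster, so that EAPP was the lowest group, though its difference of -0.57 from empty vector was not called. RFPL4A, a RING finger gene whose mouse counterpart is known from oocytes, read 7.22 and 6.69 with EAPP, against 9.21 and 9.31 with A347S, while empty vector read 5.49 and 5.65. It is measured by 2 clusters, at -2.31 and -2.35, and has near-identical copies that the array may not separate. LMBRD2, which encodes a membrane protein, read 6.74 and 6.07 with EAPP, against 8.49 and 8.64 with A347S (difference -2.16, standard error 0.20), and DNAI3, a dynein intermediate chain, read 5.10 and 4.94, against 7.29 and 6.96 (difference -2.10, standard error 0.12). For RFPL4A and LMBRD2 the EAPP arrays were further apart from each other than the A347S arrays were.

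RADX, which binds single-stranded DNA at replication forks, fell by 2.00, with A347S arrays at 7.71 and 7.67 above all others of the series. DNAJB4, an HSP40 co-chaperone, read 9.42 and 9.04 with EAPP, against 11.15 and 11.23 with A347S, and empty vector was lower still at 8.51 and 8.58. KIAA0825, known from inherited polydactyly, read 5.11 and 5.17, against 7.32 and 7.33, in the brightest of its 3 clusters, which also differed most. CCDC28A, ROPN1L, SPATA17, MORN2 and FAM174A differed by -2.07 to -1.96, and ROPN1L belongs to the fibrous sheath of the sperm flagellum. Empty vector was nearer to EAPP than to A347S in all 12 rises and 12 falls except BDH1, as the plot by array shows.

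**Figure D1:**
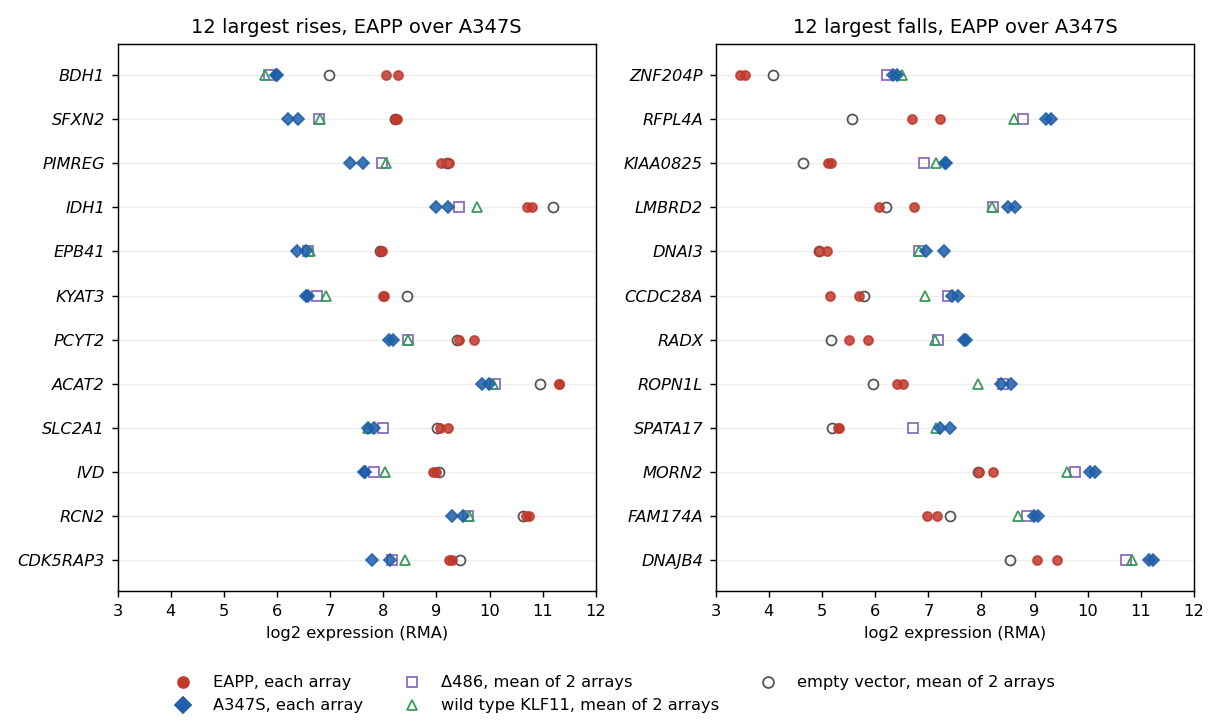
Log2 expression (RMA, horizontal axis) of the 12 largest rises and the 12 largest falls of EAPP over A347S, with each EAPP array, each A347S array, and the means of the 2 Δ486, wild type KLF11 and empty vector arrays as symbols of their own. The arrays of both mutants are separated in every gene shown, with BDH1 at 8.06 and 8.27 for EAPP against 5.99 and 6.01 for A347S.

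Since KLF11 binds GC-rich elements, the promoters of the 3 largest rises and the 3 largest falls that have an entry in the RefSeq table (GRCh38.p14) are shown for how much their base composition differs. PIMREG and ZNF204P are named only. Each promoter runs from 250 bases before to 50 bases after the first listed start site. Capitals mark CCCCGC and CCCCAC, the consensus that the study gives for KLF11, and their reverse complements GCGGGG and GTGGGG. Both strands were searched, and other GC-rich elements are not marked. The promoters of rises are BDH1 at chr3:197573294-197573593 (minus strand), SFXN2 at chr10:102714386-102714685 (plus strand) and IDH1 at chr2:208254409-208254708 (minus strand), and those of falls are RFPL4A at chr19:55758847-55759146 (plus strand), KIAA0825 at chr5:94618555-94618854 (minus strand) and LMBRD2 at chr5:36151838-36152137 (minus strand).
BDH1: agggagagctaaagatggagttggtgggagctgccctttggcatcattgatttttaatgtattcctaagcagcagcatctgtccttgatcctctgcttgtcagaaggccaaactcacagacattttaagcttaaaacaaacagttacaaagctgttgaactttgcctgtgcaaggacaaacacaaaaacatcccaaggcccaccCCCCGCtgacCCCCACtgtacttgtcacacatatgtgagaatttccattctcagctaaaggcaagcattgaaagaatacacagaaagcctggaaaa
SFXN2: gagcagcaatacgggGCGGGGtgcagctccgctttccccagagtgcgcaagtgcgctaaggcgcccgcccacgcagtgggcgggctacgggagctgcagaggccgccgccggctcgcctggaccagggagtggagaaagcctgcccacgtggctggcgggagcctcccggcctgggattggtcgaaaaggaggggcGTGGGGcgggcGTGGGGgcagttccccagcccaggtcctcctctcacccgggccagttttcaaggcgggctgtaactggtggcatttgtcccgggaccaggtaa
IDH1: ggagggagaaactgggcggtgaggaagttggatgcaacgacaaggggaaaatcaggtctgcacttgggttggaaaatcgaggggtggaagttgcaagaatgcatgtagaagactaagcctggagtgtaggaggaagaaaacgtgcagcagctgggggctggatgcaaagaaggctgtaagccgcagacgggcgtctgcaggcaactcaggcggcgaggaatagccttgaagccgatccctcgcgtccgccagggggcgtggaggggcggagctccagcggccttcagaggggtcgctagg
RFPL4A: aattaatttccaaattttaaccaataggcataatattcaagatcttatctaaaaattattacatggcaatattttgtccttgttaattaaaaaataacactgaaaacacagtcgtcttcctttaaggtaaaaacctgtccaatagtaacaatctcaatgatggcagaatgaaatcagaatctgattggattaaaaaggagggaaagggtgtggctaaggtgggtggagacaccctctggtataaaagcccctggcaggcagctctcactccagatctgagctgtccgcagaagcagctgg
KIAA0825: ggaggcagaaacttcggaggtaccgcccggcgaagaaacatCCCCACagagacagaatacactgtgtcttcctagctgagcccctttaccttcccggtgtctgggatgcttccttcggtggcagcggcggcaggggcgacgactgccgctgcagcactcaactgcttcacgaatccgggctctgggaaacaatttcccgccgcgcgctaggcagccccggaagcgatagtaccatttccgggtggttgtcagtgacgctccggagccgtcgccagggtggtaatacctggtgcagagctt
LMBRD2: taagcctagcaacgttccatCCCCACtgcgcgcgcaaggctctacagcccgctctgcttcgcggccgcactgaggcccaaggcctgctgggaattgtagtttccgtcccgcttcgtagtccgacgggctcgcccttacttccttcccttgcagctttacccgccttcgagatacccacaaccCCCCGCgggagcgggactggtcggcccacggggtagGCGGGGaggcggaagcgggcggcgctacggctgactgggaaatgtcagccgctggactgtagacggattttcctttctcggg

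The BDH1 promoter holds 1 CCCCGC and 1 CCCCAC within a window of 44.3% G and C, SFXN2 holds 1 CCCCGC and 2 CCCCAC at 69.7%, and IDH1 holds neither at 59.7%. Among the falls, LMBRD2 holds 2 CCCCGC and 1 CCCCAC at 64.7%, KIAA0825 holds 1 CCCCAC at 61.0%, and RFPL4A holds neither at 38.3%. BDH1, IDH1 and KIAA0825 each have 2 listed promoters, of which the first is shown. Of 563 protein-coding genes that rose, 478 had a promoter in the table and 88.9% of these held at least 1 of the letters searched, with a median G and C content of 71.0%. Of 557 genes that fell, 491 had a promoter and 55.6% of these held at least 1, with a median G and C content of 59.7%. The share was 69.1% over all tested protein-coding genes, of which 13741 of 16865 had a promoter with a median of 63.3% G and C, and 56.4% over all 27305 genes of the table. Within promoters of 60% to 70% G and C the shares were 89.2% of 139 rises and 69.8% of 205 falls, against 79.7% of 4718 tested genes. Inside this band the median G and C content still differed, at 66.3% for rises, 63.7% for falls and 64.7% for tested genes. There CCCCGC was held by 79.9% of rises and 55.1% of falls, against 65.2% of tested genes. CCCCAC was held by 38.8% of rises and 34.1% of falls, against 41.6% of tested genes. Among genes with a mean level of at least 6 the shares with at least 1 of either were 89.4% of rises and 56.1% of falls, against 76.6% of tested genes. These shares are descriptions without a test, and they move with G and C content, whose part in them beyond this band was not tested.

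In all, 40 gene lists were counted over 18377 genes, each represented by its brightest cluster, of which 1149 were called (6.25%), 571 higher (3.11%) and 578 lower (3.15%). The median difference over these genes was 0.0086. Each list count below is to be read beside these shares. Lists and members were chosen with earlier results of these data known, so the counts are a description and not independent evidence. The highest share of rises among the lists was in cholesterol and fatty acid synthesis, where 10 of 33 measured members rose and 0 fell, with a median difference of 0.39. ACAT2 read 11.30 and 11.30 with EAPP, against 9.99 and 9.85 with A347S, and these EAPP arrays were above all others of the series, where empty vector averaged 10.95. Its difference of 0.35 between EAPP and empty vector was not called. DHCR7, which catalyses the last step of a branch of cholesterol synthesis, read 10.84 and 10.88, against 9.91 and 9.80 (difference 1.01, standard error 0.09). SLC25A1, the citrate carrier that exports acetyl units from mitochondria, rose by 1.05, and FASN, fatty acid synthase, rose by 0.89. The other rises were TM7SF2, LSS, ACACA, FADS2, STARD4 and INSIG1. SREBF1 and SREBF2, the transcription factors of this pathway, stood at 0.42 and 0.38, past the adjusted p but not the fold.

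Genes that break down branched-chain amino acids, propionate and ketone bodies rose in 8 of 29 cases and fell in 2, with a median difference of 0.32. Besides BDH1, IVD read 8.99 and 8.93 with EAPP, against 7.64 and 7.65 with A347S (difference 1.32, standard error 0.09). BCKDHB, a subunit of the branched-chain ketoacid dehydrogenase, read 9.58 and 9.49, against 8.39 and 8.47 (difference 1.10), and PCCB, a subunit of propionyl-CoA carboxylase, rose by 1.00. In both genes the EAPP arrays were higher than all other arrays, with an empty vector mean of 9.27 for BCKDHB and of 10.14 for PCCB. Against empty vector EAPP differed by 0.27 for BCKDHB and 0.18 for PCCB, and neither was called. ALDH6A1, BCAT2, MMUT and PCCA were the other rises. MCEE, methylmalonyl-CoA epimerase, fell by 0.84 and BDH2, a cytosolic dehydrogenase whose arrays all read under 6, fell by 0.62.

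Of 30 genes of pyruvate entry and the tricarboxylic acid cycle, 9 rose and 1 fell, with a median difference of 0.22. IDH2, the mitochondrial NADP-dependent isocitrate dehydrogenase, read 10.16 and 10.28 with EAPP, against 9.20 and 9.06 with A347S (difference 1.10, standard error 0.09). PC, pyruvate carboxylase, read 7.56 and 7.45, against 6.70 and 6.66 (difference 0.82). For IDH2 and PC the EAPP arrays were the highest of the series, with empty vector means of 10.11 and 7.31. EAPP minus empty vector was 0.11 for IDH2 and 0.19 for PC, and neither was called. KGD4, part of the oxoglutarate dehydrogenase complex, rose by 1.24 with EAPP arrays as far apart as 6.98 and 6.29, and OGDH of the same complex rose by 0.66. SUCLG1, the alpha subunit of succinyl-CoA ligase, read 9.53 and 9.49, against 10.26 and 10.25, and fell by 0.74, while SUCLG2, a beta subunit, rose by 0.59. In the respiratory chain and ATP synthase 0 of 61 members rose and 1 fell, NDUFA5 of complex I by 1.00, and the median was -0.10. At an adjusted p without a fold 0 of these members were higher with EAPP and 11 were lower, against 14.2% higher and 9.78% lower among all genes.

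In glycolysis and glucose uptake 5 of 28 members rose and 0 fell, with a median of 0.20. SLC2A1 and ALDOC, an aldolase, rose by 1.37 and 1.17, PFKL, the liver phosphofructokinase, by 0.67, TKT, transketolase, by 0.62 and GYS1, glycogen synthase, by 0.62. After cyclic loess scaling 3 members rose in place of 5, and GYS1 then stood at 0.56, as it did without the second EAPP array (0.56) and without the first A347S array (0.54). In the hypoxia response 5 of 30 rose and 0 fell, among them BNIP3 of mitophagy by 0.91 and ERO1A, an oxidase of the endoplasmic reticulum, by 0.78, while HIF1A itself stood at 0.54, short of the fold. Of 28 triglyceride and phospholipid genes 4 rose and 2 fell. LPIN1, a phosphatidate phosphatase, rose by 0.78, whereas GPAM, the mitochondrial acyltransferase that begins glycerolipid synthesis, read 7.24 and 7.07 with EAPP, against 8.27 and 8.19 with A347S, and fell by 1.08.

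Of 39 genes of fatty acid oxidation and the peroxisome 5 rose and 2 fell. HSD17B4, the peroxisomal bifunctional protein, read 9.42 and 9.34 with EAPP, against 8.25 and 8.28 with A347S (difference 1.11), and CPT1A, which admits fatty acids to mitochondria, rose by 0.99. PEX3, needed for the peroxisomal membrane, fell by 1.31. Among 40 mitochondrial carriers and sideroflexins 5 rose and 3 fell, with UCP2, an uncoupling protein, at 1.06. Of 29 genes of amine and aldehyde degradation 4 rose, namely KYAT3, ALDH1B1, ALDH7A1 and GATM, and 0 fell. ALDH1B1, a mitochondrial aldehyde dehydrogenase, read 9.70 and 9.80 with EAPP, against 8.58 and 8.39 with A347S. In the list of NRF2, glutathione and detoxification 6 of 41 rose and 1 fell. TPMT, which methylates thiopurines, rose by 1.15 and SLC7A11, the cystine transporter, fell by 0.83.

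**Figure D2:**
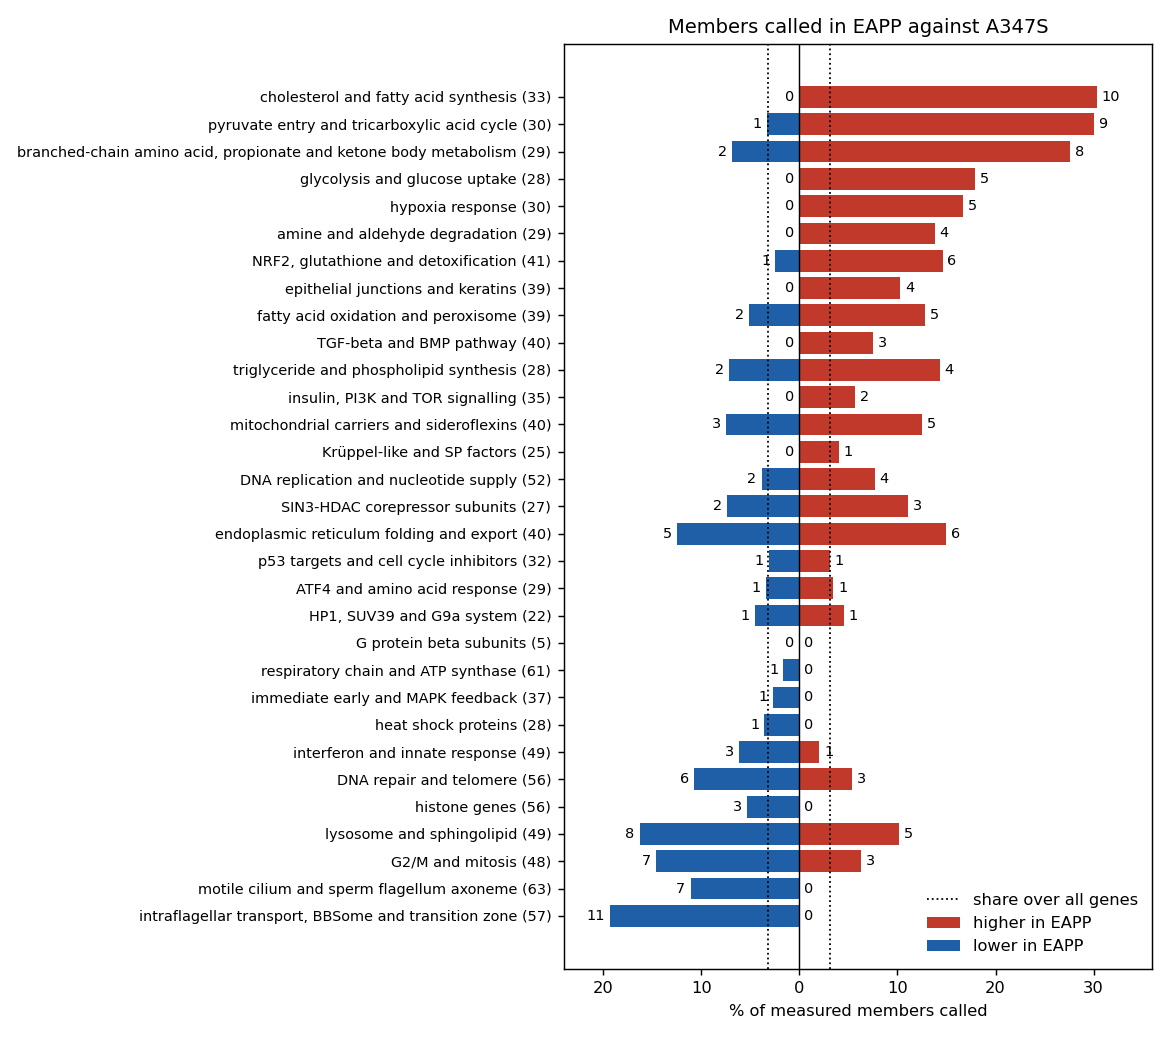
Share of the measured members of each gene list (cell type markers, reference genes, diabetes genes and the selection made with the study in view are not drawn) called higher or lower with EAPP than with A347S, in percent (horizontal axis), with the number of members at each bar and dotted lines at the shares over all genes. Cholesterol and fatty acid synthesis leads the rises with 10 of 33, and intraflagellar transport leads the falls with 11 of 57.

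Of 57 genes of intraflagellar transport, the BBSome and the transition zone 11 fell with EAPP relative to A347S and 0 rose (median -0.18), and of 63 genes of the motile axoneme and sperm flagellum 7 fell and 0 rose (median -0.11). Both lists were added after changes in ciliary genes had been seen on these arrays, so their direction is not independent evidence. IFT20, which carries cargo from the Golgi to the cilium, read 6.93 and 7.05 with EAPP, against 8.47 and 8.40 with A347S (difference -1.44, standard error 0.13). TMEM67, the transition zone protein meckelin, read 7.99 and 7.81, against 9.02 and 9.08 (difference -1.15). IFT80 and CLUAP1, both of intraflagellar transport, fell by 0.91 and 0.68, and the other falls were ARL6, BBS9, BBS5, BBS12, DYNC2LI1, KIFAP3 and IFT57. Without the first EAPP array 17 members of this list fell in place of 11.

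In the axoneme list ROPN1L read 6.41 and 6.52 with EAPP, against 8.38 and 8.55 with A347S. CFAP43, a protein of cilia and flagella, read 5.37 and 4.98, against 6.56 and 6.56 (difference -1.39, standard error 0.14), while empty vector averaged 4.27, so that EAPP lay between empty vector and A347S. CFAP206 fell by 1.01, with EAPP arrays at 5.76 and 5.66 and an empty vector mean of 5.69. CFAP69, SAXO2 and CFAP44, the other falls, differed by -1.89, -1.70 and -1.32. The arrays of the 7 genes that fell lay between 4.69 and 6.52 with EAPP, against 6.56 to 8.55 with A347S.

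**Figure D3:**
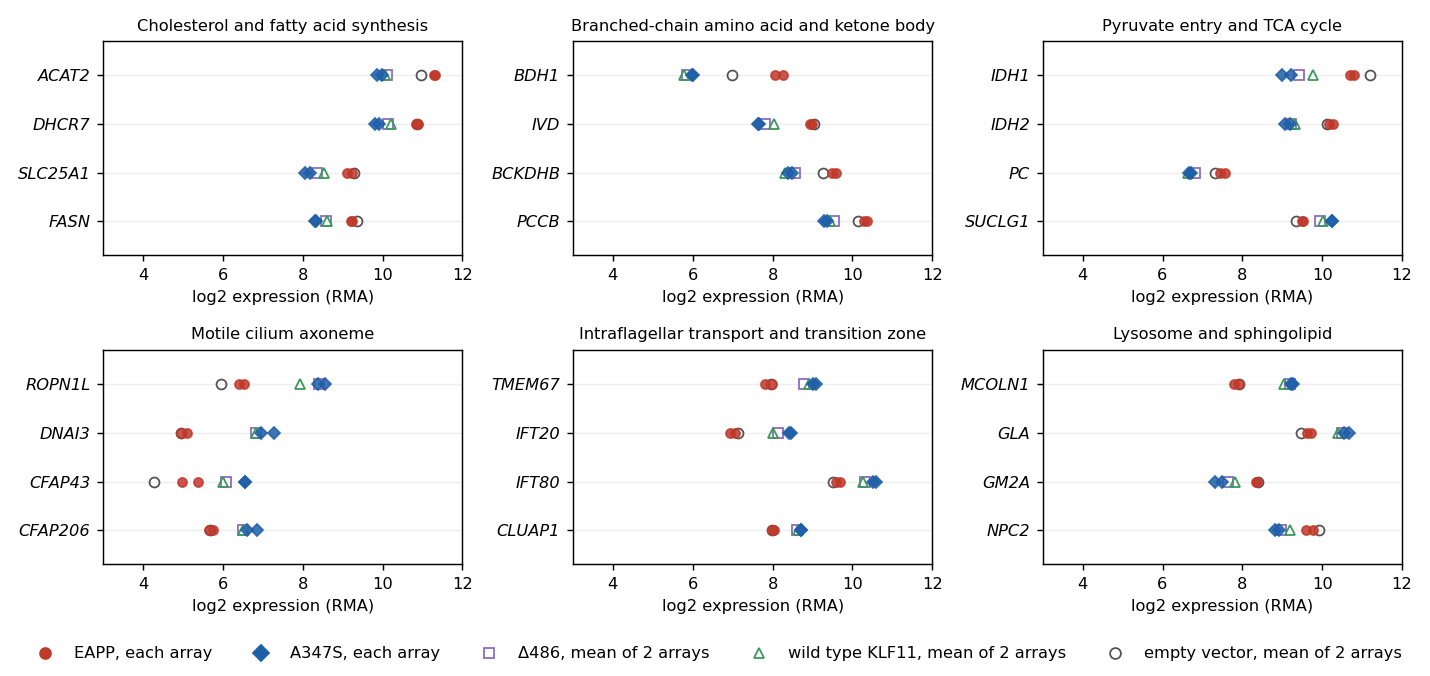
Log2 expression (RMA, horizontal axis) of the 4 members with the lowest p of each of 6 gene lists, with each EAPP array, each A347S array, and the means of the 2 Δ486, wild type KLF11 and empty vector arrays as symbols of their own. EAPP lies to the right of A347S for ACAT2, at 11.30 and 11.30 against 9.99 and 9.85, and to its left for IFT20, at 6.93 and 7.05 against 8.47 and 8.40.

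Lysosomal and sphingolipid genes were called in both directions, with 5 of 49 rising and 8 falling. MCOLN1, a calcium channel of the lysosome, read 7.92 and 7.79 with EAPP, against 9.23 and 9.28 with A347S (difference -1.40, standard error 0.08), and GLA, alpha-galactosidase, fell by 0.94. GM2A, the activator protein for ganglioside breakdown, rose by 0.94 and NPC2, which carries cholesterol out of the lysosome, by 0.81. Without the first EAPP array or without the second A347S array 3 members rose in place of 5. SLC38A9, the arginine sensor of the lysosome that signals to TOR, read 7.18 and 6.85 with EAPP, against 9.02 and 8.90 with A347S. Its EAPP arrays were the lowest of the series, with an empty vector mean of 7.30, and the difference of -0.28 from empty vector was not called. In insulin, PI3K and TOR signalling 2 of 35 rose and 0 fell. PIK3R1, a regulatory subunit of PI3 kinase, rose by 0.84, and DDIT4, an inhibitor of TOR, read 8.31 and 8.22 with EAPP, against 7.70 and 7.52 with A347S, both below the empty vector mean of 9.11. Without the second A347S array DDIT4 stood at 0.57, under the fold.

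Among genes of mitosis 3 of 48 rose and 7 fell. KIF20A, a mitotic kinesin, read 9.33 and 9.14 with EAPP, against 10.42 and 10.33 with A347S (difference -1.14, standard error 0.08), and NEK2, a centrosomal kinase, fell by 0.73. CDC25B, a phosphatase that promotes entry into mitosis, rose by 1.01. Without the second EAPP array 4 members fell in place of 7. Of 52 replication genes 4 rose and 2 fell, with POLD2 and POLE, subunits of the replicative polymerases, rising by 0.81 and 0.76, and GINS3, of the replicative helicase, falling by 0.81. After quantile or cyclic loess scaling, or without the first EAPP array, 2 of them rose in place of 4.

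Of 56 repair and telomere genes 3 rose and 6 fell. TERF2IP, the RAP1 protein of telomeres, read 8.08 and 8.03 with EAPP, against 9.12 and 9.18 with A347S, and OGG1, a glycosylase for oxidized guanine, rose by 0.76. Without the first A347S array 5 rose in place of 3. Of 32 p53 targets and cell cycle inhibitors 1 rose and 1 fell (3.12% each), much as among all genes (3.11% and 3.15%). RBL1, a pocket protein related to RB1, rose by 0.92, and PPM1D, a phosphatase that opposes p53, fell by 0.75. Of 56 histone genes 0 rose and 3 fell, and 1 fell without the second EAPP array or without the second A347S array. Histone genes are near-identical copies and uncertain one by one.

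The chromatin partners of KLF11 were themselves measured. Of 27 SIN3-HDAC subunits 3 rose and 2 fell. HDAC1 read 12.23 and 12.24 with EAPP, against 11.61 and 11.54 with A347S (difference 0.66, standard error 0.07), ING2, a reader of histone methylation, rose by 0.89, and SIN3A, the scaffold, by 0.62. BRMS1 and KDM5A fell by 0.63 and 0.60. After cyclic loess scaling 4 subunits fell in place of 2, and without the second EAPP array or the first A347S array 1 fell. Of 5 G protein beta subunits 0 were called. GNB1 read 11.50 and 11.63 with EAPP, against 11.17 and 11.04 with A347S (difference 0.45, limma adjusted p = 0.0032), and GNB2 read 9.43 and 9.43, against 9.20 and 9.31 (difference 0.18, limma adjusted p = 0.131). Of 22 genes of the HP1, SUV39 and G9a system 1 rose and 1 fell (4.55% each), near the shares of all genes (3.11% and 3.15%). At an adjusted p without a fold 9 of the 22 were higher with EAPP and 1 was lower, against 14.2% and 9.78% of all genes. EHMT2, which encodes G9a, rose by 0.67 and KDM4D, a demethylase, fell by 0.63. KDM4D stood at -0.50 without the first EAPP array and at -0.56 without the second A347S array, both under the fold.

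Among 25 Krüppel-like and SP factors, against 3.11% rising and 3.15% falling of all genes, 0 fell and 1 rose (4.0%). This was SP1, a GC box factor, which read 9.18 and 9.13 with EAPP, against 8.58 and 8.10 with A347S (difference 0.81, standard error 0.14), and which stood at 0.57, under the fold, without the second A347S array. KLF10, the closest relative of KLF11, read 8.18 and 7.96, against 7.63 and 7.63 (difference 0.44), short of the fold, and KLF9 stood at -0.04. At an adjusted p without a fold 9 of the 25 factors were higher with EAPP and 0 were lower, against 14.2% and 9.78% of all genes. Of 40 TGF-beta and BMP genes 3 rose and 0 fell. TGFBR1, the type I receptor, read 8.11 and 8.12 with EAPP, against 6.99 and 6.82 with A347S (difference 1.21, standard error 0.08), and SMAD2, its effector, rose by 0.92 in its brighter cluster and differed by 0.60 in the other. Of 39 junction and keratin genes 4 rose and 0 fell, and KRT19, a keratin of ductal epithelium, read 10.39 and 10.39, against 9.35 and 9.29 (difference 1.07, standard error 0.13). KRT19 and CD24 were the 2 of 11 measured ductal markers that rose.

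Of 40 genes of endoplasmic reticulum folding and export 6 rose, among them HYOU1, a chaperone, by 0.89 and SEC23A of the COPII coat by 0.69, and 5 fell, such as SEC24A of the same coat by 0.90, of which 3 fell without the second EAPP array. In the ATF4 response 1 of 29 rose, PYCR1 of proline synthesis by 0.90, and 1 fell, SLC7A11 again. Each is 3.45% of the list, near the 3.11% and 3.15% of all genes. Of 49 interferon and innate response genes 1 rose and 3 fell, with SAMHD1, a nucleotide hydrolase that restricts viruses, at 8.78 and 8.52 for EAPP, against 10.03 and 10.16 for A347S (difference -1.44). Of 37 immediate early genes 0 rose and 1 fell (2.7%), HBEGF, an EGF receptor ligand, by 0.84, while MYC stood at 0.46. Of 28 heat shock genes 0 rose and 1 fell (3.57%), DNAJB4. Of 14 monogenic diabetes and islet genes 0 were called, with PDX1, a pancreatic homeodomain factor, at -0.29 (limma adjusted p = 0.112). Of 29 genes picked with the study and earlier results of these arrays in view 5 rose, namely BDH1, SGPL1, DDIT4, GYS1 and LIPA, and 0 fell, which is a small selection and no count of what the study names. Of these, 3 rose after either scaling or without the first EAPP array, and 2 without the second A347S array. Of 12 reference genes 0 were called, with TBP at -0.47, HPRT1 at 0.50 and ACTB at 0.19. TBP, HPRT1 and YWHAZ (0.38) passed the adjusted p but not the fold.

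The arrays that did not enter the difference show which of both mutants stood apart. At 724 of the 1260 called clusters (57.5%) both A347S arrays lay beyond all 8 other arrays on the side away from EAPP, which is so for 14.7% of all clusters. At 131 (10.4%) both EAPP arrays lay beyond all 8 others on the side away from A347S, against 6.26% of all clusters, and 52 clusters showed both patterns. With 1 array of a mutant left out, 1 array in place of 2 has to lie beyond the rest. The count for that mutant was then higher. The set of called clusters changed as well, so such counts do not compare directly with the 724 and 131. BDH1, ZNF204P, FAM174A, SLC38A9, EPB41 and ZNF420, a zinc finger gene at 7.77 and 7.76 with EAPP against 9.22 and 9.19 with A347S, had the largest differences among the named genes of the 131. On a scale from 0% at the EAPP mean to 100% at the A347S mean, Δ486 lay at a median of 78.4% (quartiles 69.2% and 86.7%) and wild type KLF11 at 69.3% (57.9% and 80.9%). Empty vector lay at -9.38% (-22.5% and 4.30%), which is beyond EAPP on the side away from A347S. The clusters were chosen for the difference that sets this scale, so these counts and positions are a description.

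**Figure D4:**
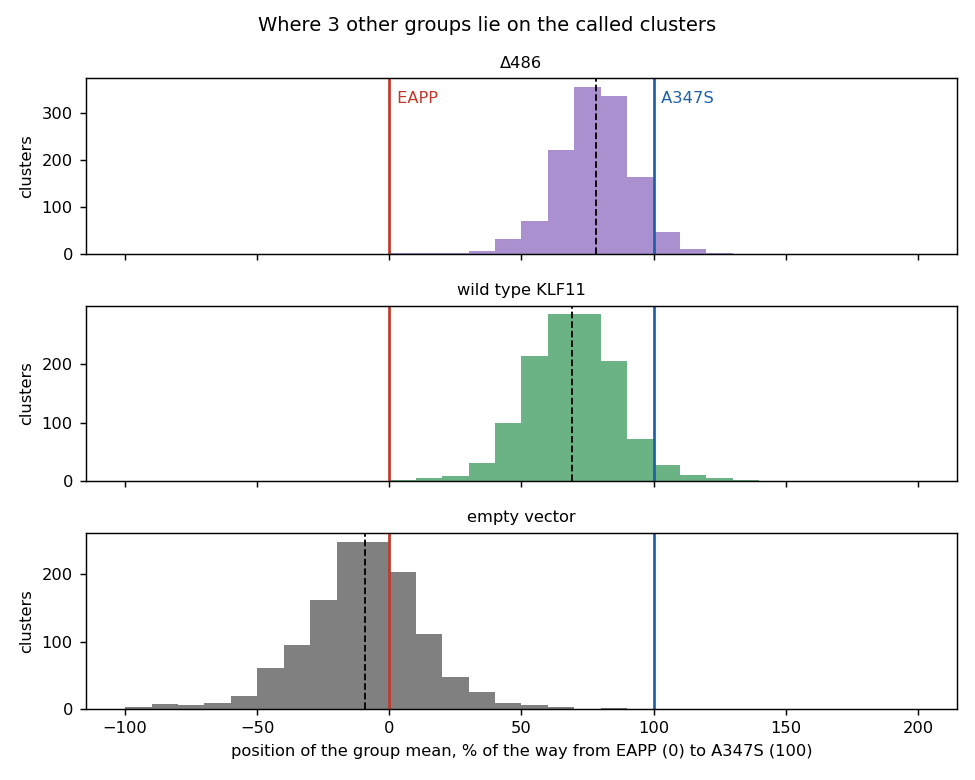
Number of called clusters (vertical axis) by the position of the Δ486, wild type KLF11 and empty vector means, in percent of the way from the EAPP mean (0) to the A347S mean (100), with the median marked. Δ486 and wild type KLF11 lie towards A347S, with medians at 78.4% and 69.3%, and empty vector lies around EAPP, with its median at -9.38% and 2 clusters below the axis drawn in the end bar.

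The empty vector mean was nearer to EAPP than to A347S at 1251 of the 1260 clusters, against 72.3% of all clusters. It was nearer to A347S at 9, and BDH1, ALDH6A1 and DHTKD1 were metabolic enzymes among them. ALDH6A1, a dehydrogenase of valine breakdown, read 6.58 and 6.68 with EAPP, against 5.56 and 5.74 with A347S, and 5.87 and 5.75 with empty vector. DHTKD1, a mitochondrial dehydrogenase of lysine breakdown, read 8.55 and 8.68 with EAPP, against 7.77 and 7.72 with A347S, and 8.02 and 8.09 with empty vector. The remaining 6 were ADCY10P1, ATP6AP1L, DENND10P1, TUBE1, VWC2L and ZNF573, of which ADCY10P1, ATP6AP1L and VWC2L were dim, with every array under 6. BDH1 was higher with EAPP than with empty vector by 1.19 (limma adjusted p = 0.0127) and lower with A347S than with empty vector, at -0.98 (limma adjusted p = 0.000135), 2 comparisons that share the empty vector arrays. It was the 1 cluster that limma called for EAPP against empty vector (0.00477%), where 1829 had an unadjusted p under 0.05, while 1882 were called for A347S against empty vector (8.98%).

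Wild type KLF11 and Δ486, set against empty vector, use none of the arrays of the comparison. Wild type KLF11 minus empty vector, in which 837 clusters were called (3.99%), had the sign opposite to EAPP minus A347S at 1255 of the 1260 clusters (99.6%, against 72.4% of all clusters). Δ486 minus empty vector, in which 1176 were called (5.61%), likewise had the opposite sign at 1255 (99.6%, against 73.3%). Across all 20961 clusters the Pearson correlation was -0.826 with wild type KLF11 and -0.824 with Δ486, which is across clusters, not independent replicates, and both of these differences share the empty vector arrays. The median size of the difference at the called clusters was 0.75 for EAPP minus A347S, 0.61 for wild type KLF11 and 0.68 for Δ486. The exceptions in at least 1 of them were VWC2L, ADCY10P1, ATP6AP1L, DENND10P1, DPY19L2, BDH2, SNORD115-44 and 1 cluster with several symbols. In direct tests limma called 684 clusters for EAPP against Δ486 (3.26%) and 527 for EAPP against wild type KLF11 (2.51%). For A347S against Δ486 and against wild type KLF11 limma called 0 (0%), with 1557 and 3017 clusters at an unadjusted p under 0.05.

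**Figure D5:**
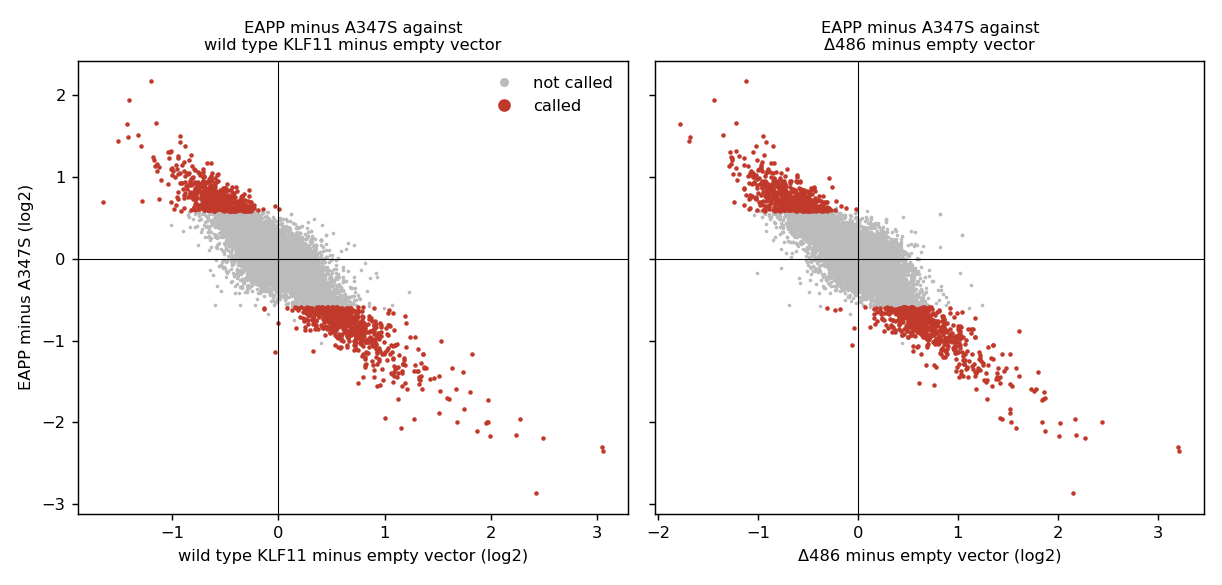
Difference of EAPP minus A347S (log2, vertical axis) against wild type KLF11 minus empty vector and Δ486 minus empty vector (log2, horizontal axes) for all 20961 clusters, with called clusters marked. The points run from upper left to lower right, with correlations of -0.826 and -0.824 across clusters.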

How the data were processed

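RNA from Panc1 cells was hybridized to Affymetrix Human Gene 1.0 ST arrays, 2 for each of 5 conditions. Background subtraction and RMA normalization were done by the authors, and each deposited value is the log2 level of a transcript cluster. The submitters' processing notes name Partek 6.6. The sources used here name no genome build for the annotation. Of 28869 clusters, 7908 without a gene symbol were left out. Names come from the platform annotation, and 19198 of 19229 clusters with 1 symbol matched a RefSeq gene by number, with 0 changed names. Clusters with several symbols (1732) were counted, not named.

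With limma 3.58.1 (R 4.3.3) a mean per group was estimated from all 10 arrays (5 residual and 4.54 prior degrees of freedom), with the contrast EAPP minus A347S, moderated two-sided tests and Benjamini-Hochberg adjustment over 20961 clusters. The 1.5-fold threshold follows the study's results, while its methods state 1.5 on the log2 scale. The pipeline was tested on simulated data. The number of arrays limits the precision.

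Genes named are the 12 largest rises and falls, the 6 largest differences with EAPP beyond all other arrays, up to 4 members per list with the smallest p, KLF11, a selection of genes picked with the study in view, and further list members chosen after their values were seen. The members and lists were chosen with earlier results of these data known. Promoters are those of RefSeq (GRCh38.p14), matched by gene number, the first listed for each gene. Chromatin immunoprecipitation was not analysed here. Alternatives covered thresholds, moderation, arrays in the fit, scaling, clusters tested, a replicate block and each array left out.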

Additional observations from a re-analysis of the deposited data

Results flagged for a closer look

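Clusters without a gene symbol were not part of the comparison. When they were tested together with the others, limma called 115 of 7908 (1.45%), with 52 higher with EAPP than with A347S and 63 lower, while 0 of them were called for EAPP against empty vector.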

How the results depend on the processing

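Under 14 alternatives of fit, scaling, clusters tested and arrays, 95 of 104 called genes stayed called wherever they were tested, and 0 changed direction. These 104 leave out the further list members chosen after their values were seen, such as TKT, SUCLG2, BRMS1 and KDM5A. ZNF204P and CFAP43 have a mean under 6 and were not tested in the setting without dim clusters. The 9 others (ECI2, GYS1, PLOD1, NQO2, LIPA, KDM4D, SGPL1, SP1 and DDIT4) fell under the fold in at least 1 of them, and 13 genes short of the call passed it in at least 1. With no fold threshold 4899 clusters had an adjusted p under 0.05 (2858 higher with EAPP, 2041 lower). At an absolute log2 difference of 1.5 there were 39 (6 and 33). A plain t-test of 2 EAPP against 2 A347S arrays was also run, without the Bayes correction that the study's methods name. It gave 4463 clusters with an unadjusted p under 0.05, of which 1092 also reached the fold, and 0 after Benjamini-Hochberg (0 and 0). Other fits, scalings and sets of clusters called 1152 to 1365. Leaving out each EAPP or A347S array in turn gave 1136 to 1488 calls, 482 to 819 higher and 587 to 820 lower. Clusters with EAPP beyond all other arrays then numbered 141 to 552, and those with A347S beyond all others 697 to 1249, where 1 array in place of 2 has to lie beyond the rest. Opposite signs then numbered 1128 to 1477 for wild type KLF11 and 1124 to 1479 for Δ486, and empty vector nearer to EAPP 1124 to 1478. These array-wise counts, and the promoter shares by level, base composition and any listed promoter (94.6% of rises and 59.7% of falls, against 74.4% of all tested genes), were chosen after seeing the data. The replicate numbers do not pair the samples: same-numbered EAPP and A347S arrays deviated with a correlation of 0.0469, and with the replicate number as a block 1260 clusters were called. Depth has no counterpart on arrays, and dim clusters are compressed on the log2 scale: with a mean of at least 6, 1156 clusters were called.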

Other observations

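Zinc finger genes whose symbol is ZNF and a number were counted after their values had been seen. Of 493 such genes 71 fell with EAPP relative to A347S (14.4%) and 2 rose (0.406%), ZNF860 by 0.97 and ZNF654 by 0.83, against 3.15% falling and 3.11% rising among all genes. Their median difference was -0.07 and their median level 6.96, compared with 6.88 for all genes. After quantile scaling 76 fell, and after cyclic loess scaling 76. The count is a description without a test, and these genes share sequence repeats that probes may read across.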
